A study of Mus musculus with 2 samples.

Results

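Chemokines and their receptors were examined in Treg cells of islet-transplanted mice, by taking every gene whose symbol begins with Ccl, Ccr, Cxcl, Cxcr, Xcl, Xcr or Ackr followed by a digit, together with Cx3cl1 and Cx3cr1. The rule found 62 of the 20938 genes in the tables, of which 39 are chemokines and 23 are receptors. RNA-seq was performed on 1 library of splenic Treg cells from Foxp3-Mettl14f/+ cKO mice, in which a Foxp3-driven Cre removes 1 of the 2 copies of Mettl14 from Foxp3-expressing cells, and on 1 library from littermate controls, which the methods give as Mettl14f/f and the labels call wild type. All animals were on a C57BL/6J background, were made diabetic with streptozotocin, received BALB/c islets under the kidney capsule and were sampled on day 7 after transplantation, without the tolerance-inducing antibodies used elsewhere in the study. The cells were prepared from spleen with magnetic beads, by removal of cells that are not CD4+ T cells and then enrichment of CD25+ cells, and neither the age of the mice nor whether several mice were pooled is given in the sources used here. The label of the cKO sample describes its genotype as a Foxp3 knockdown, and the genotype of the methods is used here.

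Chemokines are small secreted proteins that steer leukocytes along gradients, and their receptors are G protein-coupled receptors of the inhibitory G protein class. Homeostatic chemokines guide lymphocytes into and through the spleen and lymph nodes, whereas inflammatory chemokines draw granulocytes, monocytes and effector T cells to injured tissue, including grafts. Treg cells use the same receptors to reach lymphoid follicles, mucosa and inflamed sites, and the atypical receptors bind chemokines without G protein signaling and clear them.

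The deposited tables hold 1 level per gene, which is a whole number of reads divided by 1 constant for each library, so that 1 read corresponds to a level of 0.967 in the control sample and 1.14 in the cKO sample. Totals of 20239325 and 18327535 reads were recovered, and the floor of 3 reads that a count of 0 allows is 0.148 and 0.164 reads per 1000000. With 1 library per genotype, no difference given here has a replicate check, and the genotype cannot be told apart from any difference in cell makeup or handling between the libraries. Differences are log2 ratios of cKO to control, after adding 1 to both levels, and a gene is called higher or lower when this passes a fold of 1.5, the threshold of the methods. The 95% intervals beside them are exact Clopper-Pearson intervals on the reads, without the added 1. They cover counting error only and leave out any spread between animals. Without molecular identifiers a read is not an independent molecule, so they can be too narrow even for counting error. Mettl14 itself had 948 reads in the control sample and 652 in the cKO sample, levels of 917 and 741 and a log2 difference of -0.31. In these bulk libraries, fewer cells of a type and less RNA per cell cannot be told apart.

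The receptors were mostly at higher levels in the cKO sample, and the chemokines were split between higher and lower. All 23 receptors had a mean level of at least 1, and 13 of them were higher in the cKO sample, 3 were lower and 7 were within 1.5-fold. Of the 39 chemokines, 25 passed the same minimum, with 10 higher, 11 lower and 4 within 1.5-fold. Among all 16659 genes past the minimum, 17.2% were higher and 24.2% were lower. Their median log2 difference was -0.04, against medians of 0.64 for the receptors and 0.22 for the chemokines. With a mean level of at least 10, 15.4% of all genes were higher and 14.9% were lower. Of the 22 receptors with such a mean 13 were higher and 2 lower, and of the 17 chemokines 8 were higher and 5 lower. The summed level of the receptors was 15708 in the control sample and 25246 in the cKO sample, a log2 difference of 0.68 (95% interval 0.66 to 0.71). The summed level of the chemokines was 4957 and 8687, a log2 difference of 0.81 (0.76 to 0.86).

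Many of the chemokines called lower had few reads. Of the 11 lower chemokines, 7 were listed at 0 in the cKO sample, and of the 10 higher ones 2 were listed at 0 in the control sample. Zeros of this kind were frequent across the tables, since 49.8% of all genes with 10 to 19 reads in the control sample were at 0 in the cKO sample, and 18.9% of genes with 10 to 19 reads in the cKO sample were at 0 in the control sample. Among the 16 chemokines with reads in both libraries, 8 were higher, 4 were lower and 4 were within 1.5-fold, while 15.8% of all genes with reads in both were higher and 13.7% were lower. Of the 37 members with reads in both libraries, 36 are drawn with their intervals in the plot of ratios.

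**Figure D1:**
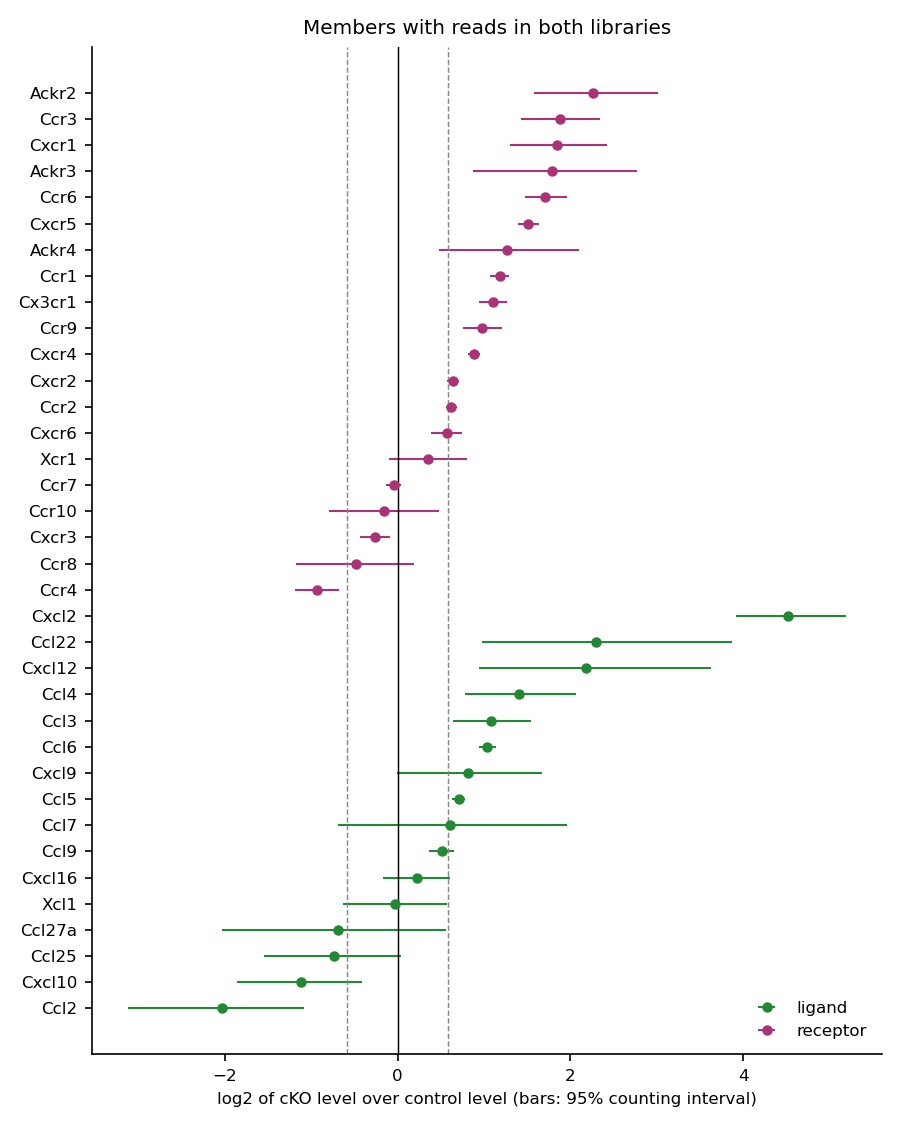
Log2 ratio of the cKO level to the control level, without a pseudocount, for 20 receptors and 16 chemokines with reads in both libraries; points are single ratios of 1 library to 1 library, bars are 95% counting intervals and dashed lines mark a fold of 1.5. Cxcl2 lies farthest to the right and Ccl2 farthest to the left, and 13 receptors lie to the right of the upper dashed line.

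Receptors that guide T cells were described first, as the cells were isolated as Treg cells. Of these 11 receptors, 4 were higher in the cKO sample (Cxcr4, Cxcr5, Ccr6 and Ccr9), 1 was lower (Ccr4) and 6 were within 1.5-fold, with a median log2 difference of 0.49. Cxcr4, the receptor for Cxcl12 that retains leukocytes in bone marrow and tissue, lies on chromosome 1 from 128588199 to 128592293. Its level was 2602 in the control sample and 4787 in the cKO sample, from 2690 and 4210 reads, a log2 difference of 0.88 (0.81 to 0.95). Per kilobase of coding transcript, Cxcr4 was the most abundant receptor in both libraries, at 1442 and 2652. Cxcr5, which brings B cells and follicular T cells into follicles, lies on chromosome 9 from 44511787 to 44561877. The level of Cxcr5 was 752 and 2142, from 777 and 1884 reads, a log2 difference of 1.51 (1.39 to 1.63). Its exons share 110 bases with Bcl9l on the opposite strand, a gene of 3021 and 3686 reads, and strand use in the counting is not given in the sources used here. Ccr6, the receptor for Ccl20 on Th17 cells, some Treg cells and B cells, had levels of 184 and 602 from 190 and 529 reads, the widest difference among these receptors at 1.71 (1.47 to 1.96). Ccr9, the receptor for Ccl25 that directs lymphocytes to the small intestine, had levels of 259 and 512 from 268 and 450 reads, with a difference of 0.98 (0.76 to 1.20). Its exons share 1932 bases with a transcript on the opposite strand and 269 bases with a long non-coding RNA on the same strand, neither of which was analysed here, so the reads of Ccr9 are uncertain.

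Ccr4 differed in the other direction. This receptor for Ccl17 and Ccl22, carried by Treg cells and Th2 cells, had a level of 411 in the control sample and 216 in the cKO sample, from 425 and 190 reads, a log2 difference of -0.93 (-1.18 to -0.68). The level was 1.90-fold lower in the cKO sample. Ccr7, which holds naive and central memory T cells in lymphoid tissue, had nearly equal levels of 2316 and 2244, with a difference of -0.05 (-0.13 to 0.04). Cxcr3, the Th1 and effector T cell receptor for Cxcl9 and Cxcl10, had levels of 669 and 559 and a difference of -0.26 (-0.43 to -0.09), inside the 1.5-fold limits although its counting interval left out 0. The same was true in the other direction of Cxcr6, the receptor for Cxcl16, at 458 and 679 with a difference of 0.57 (0.39 to 0.75). Cxcr6 passed a fold of 1.5 when the T cell core genes described next were set equal, at 0.86. Ccr8, which marks activated tissue Treg cells, and Ccr10, a skin-homing receptor, had few reads, with 51 and 31 for Ccr8 and 51 and 39 for Ccr10. Their intervals of -1.18 to 0.19 and -0.79 to 0.48 reached to both sides of 0.

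The levels of genes that mark T cells and B cells differed between the libraries as well. The 16 T cell core genes, among them Cd3e, Cd4 and Lck, summed to a level of 77897 in the control sample and 63520 in the cKO sample, with 2 of 16 lower, 0 higher and a median log2 difference of -0.24. The 10 Treg genes had 2 higher (Il2ra and Lrrc32) and 2 lower (Ikzf4 and Tnfrsf4), and Foxp3 was at 1497 and 1548. All 12 B cell genes were higher in the cKO sample, with a median of 2.47, and summed to 8875 and 48913. Pax5 alone had 1065 and 7778 reads, and none of the 12 was at 0 in either library. Cxcr4, Cxcr5, Ccr6 and Ccr7 are also receptors of B cells, and the part of B cells in these results was not tested. Relative to 1000 reads of the T cell core genes, Cxcr4 went from 33.4 reads in the control sample to 75.4 in the cKO sample, Cxcr5 from 9.65 to 33.7 and Ccr6 from 2.36 to 9.47, while Ccr7 was at 29.7 and 35.3. On the same scale Ccr4 was at 5.28 in the control sample and 3.40 in the cKO sample, so its direction was the same as on the deposited scale, whereas the small differences of Ccr7, Ccr10, Cxcr3 and Xcl1 took the opposite sign when the T cell core genes were set equal.

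**Figure D2:**
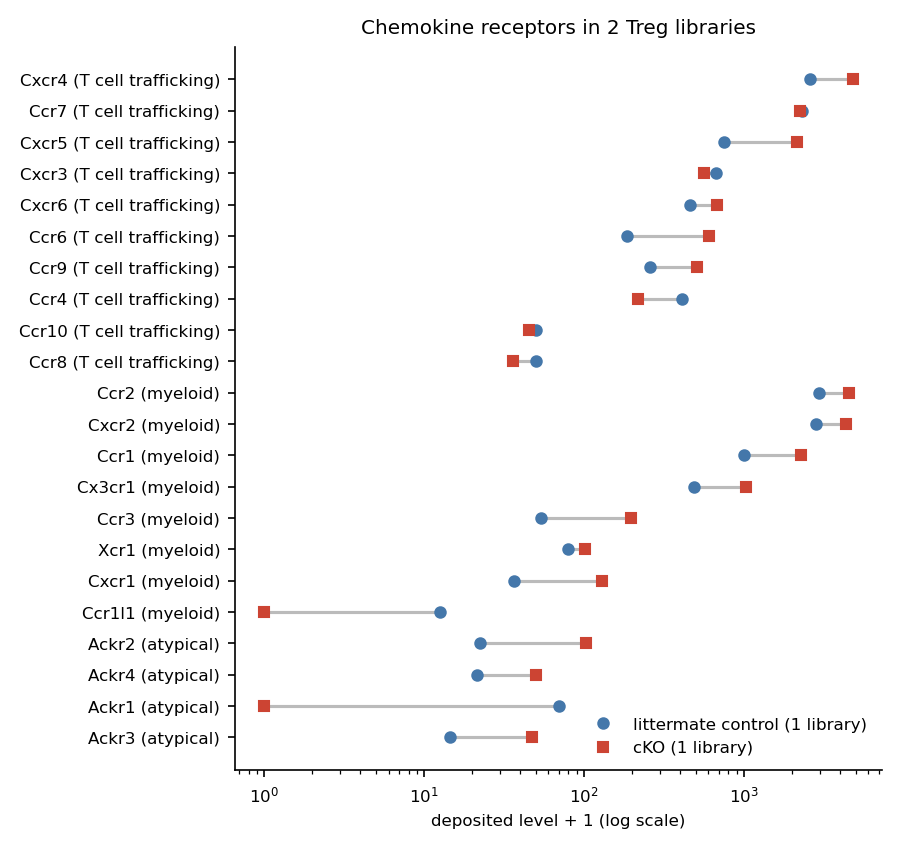
Deposited level plus 1 on a log axis for 22 of the 23 chemokine receptors, grouped by role, with 1 point for the control sample (circle) and 1 for the cKO sample (square). The cKO square lies to the right for Cxcr4, Cxcr5, Ccr6 and Ccr9 and to the left for Ccr4, and Ackr1 and Ccr1l1 have no cKO reads.

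Receptors of myeloid cells had many reads in both libraries, although the cells had been isolated as CD4+CD25+ cells. Of these 8 receptors, 6 were higher in the cKO sample, 1 was lower and 1 was within 1.5-fold, and their summed level was 7432 and 12661. Ccr2, the receptor that brings inflammatory monocytes out of bone marrow, had a level of 2952 from 3051 reads in the control sample, against 4548 from 3999 reads in the cKO sample. Its difference was 0.62 (0.56 to 0.69). Cxcr2, the main neutrophil receptor for chemokines of the Cxcl1 and Cxcl2 type, had levels of 2817 and 4383 from 2912 and 3854 reads, a difference of 0.64 (0.57 to 0.71). With library totals as scaling both fell inside the 1.5-fold limits, at 0.53 for Ccr2 and 0.55 for Cxcr2. Per kilobase, Cxcr2 ranked the third of the receptors in the control sample and second in the cKO sample, behind Cxcr4.

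Wider differences were found for the less abundant myeloid receptors. Ccr1, a receptor for Ccl3, Ccl5, Ccl6 and Ccl9 on monocytes and neutrophils, had levels of 1001 and 2270 from 1035 and 1996 reads, a difference of 1.18 (1.07 to 1.29). Cx3cr1, the fractalkine receptor of patrolling monocytes and macrophages, had levels of 484 and 1037, a difference of 1.10 (0.94 to 1.26). Ccr3, the eotaxin receptor of eosinophils, had 55 and 172 reads and a difference of 1.86 (1.43 to 2.34). Of the 10 eosinophil, basophil and mast cell genes, 5 were lower, 1 was higher and 4 were within 1.5-fold, with a summed level of 3181 and 2321. Their differences reached from -1.99 to 2.32. The lowest was Epx, eosinophil peroxidase, with 195 and 41 reads, while Siglecf of the same list had 77 and 82 and was within 1.5-fold. Cxcr1, a near relative of Cxcr2, had 37 and 113 reads and a difference of 1.82 (1.30 to 2.42). Xcr1, which marks cross-presenting dendritic cells, had 81 and 88 reads with an interval of -0.10 to 0.81. Ccr1l1, a gene next to Ccr1 and similar to it, had 12 reads in the control sample and 0 in the cKO sample. How reads that match several relatives were assigned is not given in the sources used here, so the split between Ccr1 and Ccr1l1 and between Cxcr1 and Cxcr2 is uncertain.

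Of 13 macrophage and monocyte genes, 12 were higher in the cKO sample and 1 was within 1.5-fold, with a median of 2.17 and a summed level of 28642 in the control sample and 59096 in the cKO sample. Lyz2 was the most abundant of them, with 21710 and 33118 reads, and Adgre1, which encodes F4/80, had 346 and 713. The 13 granulocyte genes summed to 266132 and 368667, with 3 higher, 1 lower and a median of 0.46, and S100a9 alone had 76931 and 89733 reads. No gene of either list was at 0 in either library. The dendritic cell list, with 2 of 8 higher, had a summed level of 3015 and 3885. The CD8 T and NK cell list, with 7 of 11 higher, had 6560 and 12650 and a median of 0.67. Its genes differed unevenly, from 0.18 to 2.46, and the highest was Cd8b1 with 365 and 1708 reads. The part of these cells in the receptor levels was not tested.

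Atypical receptors had few reads but showed some of the widest differences. Ackr2, which scavenges inflammatory CC chemokines, had 22 reads in the control sample and 90 in the cKO sample, levels of 21.3 and 102 and a log2 difference of 2.21 (1.58 to 3.01). Ackr3, a scavenger of Cxcl12, had 14 and 41 reads and a difference of 1.71 (0.88 to 2.77). Ackr4, a scavenger of Ccl19, Ccl21 and Ccl25, had 21 and 43 reads and a difference of 1.23 (0.48 to 2.09). Ackr1, the chemokine-binding Duffy antigen of erythroid and endothelial cells, had 71 reads in the control sample, a level of 68.7, and 0 in the cKO sample. With the 0 set at the floor of 3 reads in that library it was 20.1-fold lower, which allows for counting error only. Of all genes with 50 to 99 reads in the control sample, 1.82% were at 0 in the cKO sample. Erythroid genes were lower in the same library, 7 of 10, with a summed level of 34306 and 18900 and a median of -1.16. Of the 8 stromal and endothelial genes, 1 was higher, 2 were lower and 3 were within 1.5-fold, with Col3a1 and Madcam1 at 0 in both libraries, and the summed level was 2497 and 3547. The part of erythroid and endothelial cells in the Ackr1 value was not tested. Exons of Ackr1 share 361 bases with Cadm3 on the same strand, and those of Ackr4 share 479 bases with Acad11 on the opposite strand, so reads there cannot be assigned with certainty to 1 gene.

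The chemokines with the most reads were CC chemokines of the inflammatory group. Of the 10 inflammatory CC chemokines past the minimum, 5 were higher in the cKO sample, 3 were lower and 2 were within 1.5-fold. Ccl5, a product of activated T cells, NK cells and macrophages that acts on Ccr1, was the most abundant chemokine per kilobase in both libraries, at 4497 and 7336. Its level was 2392 from 2473 reads in the control sample and 3903 from 3432 reads in the cKO sample, a log2 difference of 0.71 (0.63 to 0.78). Ccl6, a myeloid chemokine that acts on Ccr1, had levels of 1329 and 2734 from 1374 and 2404 reads, a difference of 1.04 (0.94 to 1.14). Its close relative Ccl9 had levels of 661 and 940, inside the 1.5-fold limits at 0.51 (0.36 to 0.66). Together these 3 genes were the most abundant chemokines per kilobase in each library.

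Ccl3 and Ccl4, the macrophage inflammatory proteins made by activated T cells, NK cells and myeloid cells, were both higher. Ccl3 had 66 reads in the control sample and 119 in the cKO sample, a difference of 1.07 (0.64 to 1.54). Ccl4 had 31 and 70 reads, a difference of 1.38 (0.78 to 2.07). Ccl2, the main monocyte attractant and a ligand of Ccr2, was lower instead, with 53 and 11 reads, levels of 51.3 and 12.5 and a difference of -1.95 (-3.12 to -1.08). Ccl7, another Ccr2 ligand, had 10 and 13 reads and an interval of -0.69 to 1.96, too wide at this depth to show a direction. Ccl8, also a monocyte attractant, had 11 reads in the control sample and 0 in the cKO sample, Ccl24 had 8 and 0, and Ccl11, like Ccl24 a ligand of Ccr3, had 0 and 5. These counts are in the range in which many genes of the tables were at 0 in 1 library, and no fold is given for them.

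**Figure D3:**
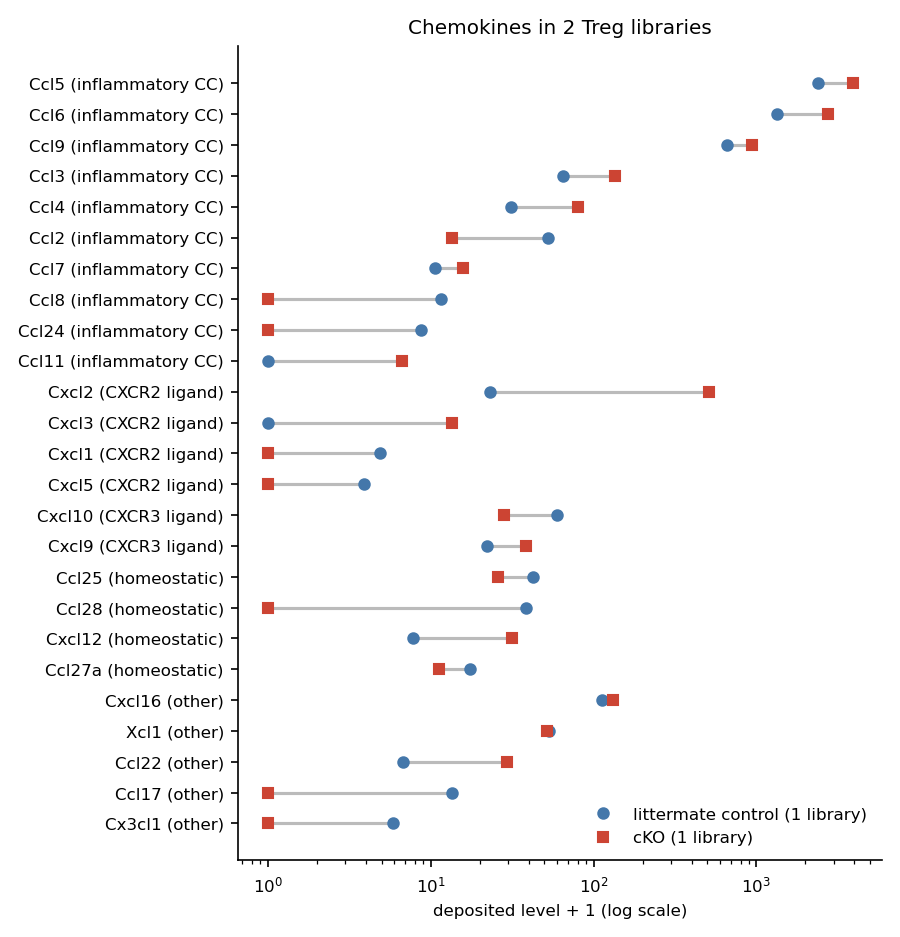
Deposited level plus 1 on a log axis for the 25 chemokines with a mean level of at least 1, grouped by role, with 1 point for the control sample (circle) and 1 for the cKO sample (square); a point at 1 is a gene with no reads. Ccl5, Ccl6 and Ccl9 lie farthest to the right, and among genes with reads in both libraries Cxcl2 has the longest line, from 22.2 to 508.

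Cxcl2 had the widest difference of any member with reads in both libraries. This neutrophil attractant, made early by stimulated myeloid cells and a ligand of Cxcr2, lies on chromosome 5 from 90903871 to 90905938. It had 23 reads in the control sample, a level of 22.2, and 447 reads in the cKO sample, a level of 508. The log2 difference was 4.45 (3.91 to 5.19), or 22.8-fold, and the rank of Cxcl2 among the chemokines per kilobase went from 15 in the control sample to 4 in the cKO sample. The other Cxcr2 ligands under the symbol rule were sparse. Cxcl3 had 0 reads in the control sample and 11 in the cKO sample, in the range in which 18.9% of all genes were at 0 in the control sample, and no fold is given for it. Cxcl1 had 4 and 0 reads and Cxcl5 had 3 and 0, which is at or near the floor, so that no fold is given. Cxcl15 was at 0 in both libraries. All 5 lie on chromosome 5 between 90759360 and 90905938, and their reads summed to 30 and 458, of which Cxcl2 held 23 and 447. These sums leave out 2 chemokine genes under other symbols that lie between Cxcl5 and Cxcl3. Ppbp had 12 and 58 reads, and Pf4 had 58 and 97.

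The sequences before the start sites are shown because Cxcl1, Cxcl2 and Cxcl3 carry the same run of 11 bases but had very different reads in the cKO sample, and Cxcl10, another chemokine of chromosome 5 that was lower there, is set beside them. The stretches are RefSeq sequences on GRCm38.p6, from 200 to 31 bases before the start of the transcript, 5′ to 3′ on the strand of the gene. Cxcl1 is at chr5:90891045-90891214 on the plus strand, Cxcl2 at chr5:90903699-90903868 on the plus strand, Cxcl3 at chr5:90785901-90786070 on the plus strand and Cxcl10 at chr5:92348920-92349089 on the minus strand. Capitals mark each match to GGGNNNTTCC, a general form of the NF-kappaB motif, on either strand, with overlapping matches joined.
Cxcl1: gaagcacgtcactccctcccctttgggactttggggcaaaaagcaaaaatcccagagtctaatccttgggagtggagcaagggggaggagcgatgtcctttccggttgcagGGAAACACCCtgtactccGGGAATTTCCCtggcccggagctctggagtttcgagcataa
Cxcl2: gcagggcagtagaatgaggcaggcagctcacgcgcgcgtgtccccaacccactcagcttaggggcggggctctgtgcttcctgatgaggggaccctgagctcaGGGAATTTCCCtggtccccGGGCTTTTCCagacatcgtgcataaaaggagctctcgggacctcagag
Cxcl3: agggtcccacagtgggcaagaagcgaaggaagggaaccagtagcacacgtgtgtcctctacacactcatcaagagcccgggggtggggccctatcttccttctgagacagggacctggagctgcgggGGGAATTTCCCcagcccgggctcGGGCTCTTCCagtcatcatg
Cxcl10: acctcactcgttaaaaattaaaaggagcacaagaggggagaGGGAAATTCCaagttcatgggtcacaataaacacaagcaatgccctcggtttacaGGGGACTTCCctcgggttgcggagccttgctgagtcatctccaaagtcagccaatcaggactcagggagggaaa

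The run shared by Cxcl1, Cxcl2 and Cxcl3 is GGGAATTTCCC, 11 bases that hold 2 overlapping matches, 1 on each strand. The motif was found in 1825 of 32851 mouse promoter windows, or 5.56%, each reaching from 250 bases before to 50 after a start. RefSeq gave 53 windows for 46 of the 62 members, and 9 of the 53 held the motif, each for a different member. Besides the 4 printed, they were Ccl1 and Ccl20, at 0 reads in both libraries, Ccl9, within 1.5-fold, and Ccr3 and Ccr6, both higher. The AP-1 motif TGANTCA was found in 10 of the 53 windows, from 9 members, and in 7.81% of all windows. Genes with the NF-kappaB motif therefore included some higher, some lower and some without reads, and a match is a description of the letters, not of a bound site.

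The chemokines that attract Cxcr3-bearing T cells did not move together. Cxcl10, induced by interferon in many cell types, had 61 reads in the control sample and 24 in the cKO sample, levels of 59.0 and 27.3 and a difference of -1.08 (-1.86 to -0.41). Exons of Cxcl10 share 133 bases with Art3 on the opposite strand, a gene of 8 and 21 reads. Cxcl9, induced mainly by interferon gamma in myeloid cells, had 22 and 33 reads and a difference of 0.79, with a counting interval that just reached 0 at its lower end and 1.67 at its upper end. Cxcl11 had no reads in either library. Summed, these genes had 83 and 57 reads, with an interval of -0.82 to 0.19.

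Homeostatic chemokines come mostly from stromal and epithelial cells, and few of their reads were found. Of 11 such genes, 4 passed the minimum, with 1 higher and 3 lower, and 6 had no reads in either library. Cxcl12, the stromal ligand of Cxcr4, had 7 reads in the control sample and 27 in the cKO sample, a difference of 2.03 (0.95 to 3.62). Ccl25, the thymic and intestinal ligand of Ccr9, had 43 and 22 reads and a difference of -0.71 (-1.55 to 0.04). Ccl27a had 17 and 9 reads and a difference of -0.63 (-2.03 to 0.56). Ccl28, a mucosal ligand of Ccr10, had 39 reads in the control sample and 0 in the cKO sample. With the 0 set at the floor it was 11.1-fold lower, which allows for counting error only. Of all genes with 30 to 49 reads in the control sample, 14.9% were at 0 in the cKO sample, so 11.1 is not a firm lower bound. When the T cell core genes were set equal, Ccl25 and Ccl27a no longer passed a fold of 1.5, at -0.43 and -0.36. Exons of Ccl25 share 204 bases with Elavl1 on the opposite strand, a gene of 3788 and 2868 reads, so that the reads of Ccl25 are uncertain.

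Among the remaining chemokines, Cxcl16, a membrane-bound ligand of Cxcr6 on macrophages and dendritic cells, had nearly the same reads in both libraries, 116 and 115, with an interval of -0.16 to 0.61. Its exons share 552 bases with Zmynd15 on the opposite strand, a gene of 84 and 12 reads. Xcl1, a product of activated T and NK cells, had 54 and 45 reads and an interval of -0.63 to 0.57. Both were within 1.5-fold. Ccl22, made by dendritic cells and macrophages and able to attract Ccr4-bearing Treg cells, was higher in the cKO sample, with 6 and 25 reads and a difference of 2.11 (0.97 to 3.87). Ccl17, the other Ccr4 ligand, had 13 reads in the control sample and 0 in the cKO sample, and Cx3cl1 had 5 and 0. Ccl19, which acts on Ccr7, had 2 and 0 reads and did not pass the minimum. The 13 chemokines without a read in either library were Ccl1, Ccl12, Ccl20, Ccl21a, Ccl21b, Ccl21c, Ccl26, Ccl27b, Cxcl11, Cxcl13, Cxcl14, Cxcl15 and Cxcl17.

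Setting receptors beside their ligands among the members showed pairs of several kinds. Cxcr4 and Cxcl12 were both higher in the cKO sample. Cxcr2 and its ligand Cxcl2 were higher too, while its ligands Cxcl1 and Cxcl5 had 4 and 3 reads in the control sample and none in the cKO sample. Ccr1 was higher with its ligands Ccl3, Ccl5 and Ccl6, and its ligand Ccl9 was within 1.5-fold. Ccr9 was higher, while Ccl25 was called lower with an interval that reached 0.04, and the reads of both are uncertain. Cx3cr1 was higher, while Cx3cl1 had 5 and 0 reads. Ccr2 was higher, while its ligand Ccl2 was lower. Ccr4 was lower, while Ccl22 was higher and Ccl17 was listed at 0. Cxcr5 and Ccr6, at differences of 1.51 and 1.71, had no reads of their ligands Cxcl13 and Ccl20 in either library, and Ccr7 had no reads of Ccl21a. Ccr8, within 1.5-fold, likewise had no reads of Ccl1, the only ligand set beside it here.

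Many chemokine and receptor genes are neighbours in the genome, and the clusters differed from each other. On chromosome 11 from 83525778 to 83664683, the cluster of Ccl5, Ccl9, Ccl6, Ccl3 and Ccl4 had 4 of 5 genes higher, with 4627 reads in the control sample and 6852 in the cKO sample and a log2 difference of 0.80 (0.75 to 0.85). The cluster before it, from 82035571 to 82305690 with Ccl2, Ccl7, Ccl11, Ccl12, Ccl8 and Ccl1, had 74 and 29 reads and a difference of -1.12 (-1.79 to -0.48). On chromosome 9 from 123678439 to 124113557 lie 7 receptors, Ccr9, Cxcr6, Xcr1, Ccr1, Ccr1l1, Ccr3 and Ccr2, of which 4 were higher, 1 was lower and 2 were within 1.5-fold. Their summed reads were 4975 and 7302, a difference of 0.79 (0.73 to 0.84). Lztfl1, inside the span of Ccr9, and Fyco1, whose span holds Cxcr6, are not receptors and lie on the strand opposite to Ccr9 and Cxcr6. Lztfl1 and Fyco1 were within 1.5-fold at 0.23 and 0.44, and Slc6a20a at the edge had 69 and 5 reads. The levels along 3 of the clusters are drawn in the plot of neighbouring genes.

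**Figure D4:**
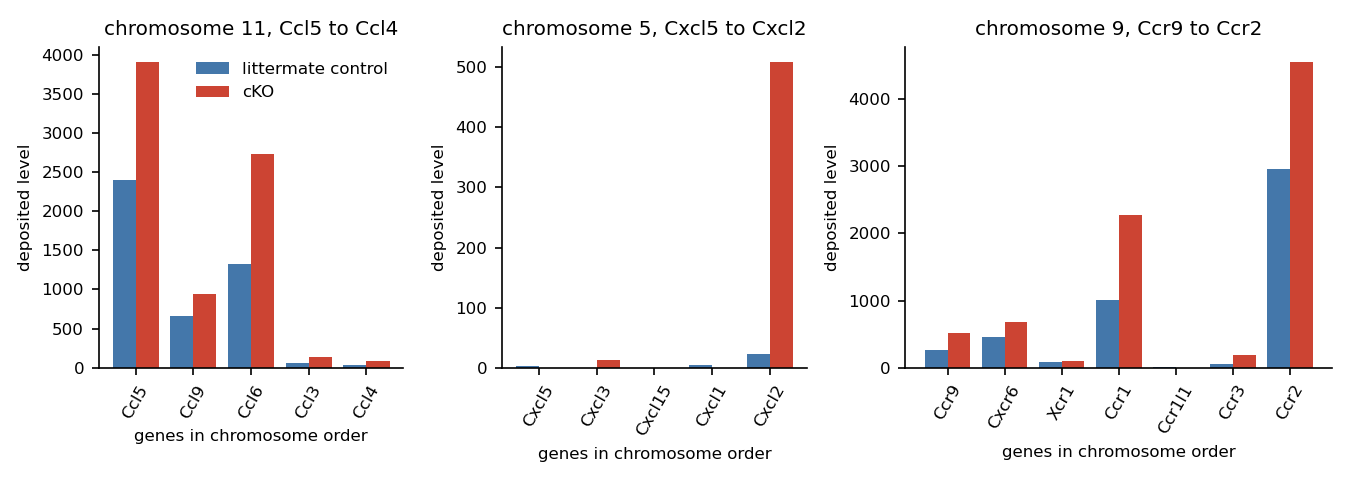
Deposited level, on a linear axis from 0, of neighbouring genes in chromosome order in the clusters on chromosome 11 (Ccl5 to Ccl4), chromosome 5 (Cxcl5 to Cxcl2) and chromosome 9 (Ccr9 to Ccr2), with 1 bar for the control sample and 1 for the cKO sample. Among the genes drawn, Cxcl2 is the only one of its cluster with a bar far above 0. In the other 2 clusters the cKO bar is the taller one for every gene but Ccr1l1. Ppbp and Pf4, which lie between Cxcl5 and Cxcl3, do not fall under the symbol rule and are not drawn.

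Genes that carry chemokine signals inside the cell were mostly within 1.5-fold. Of 42 such genes, 41 passed the minimum, Gnai1 being at 0 in both libraries, and 9 were higher, 2 were lower and 30 were within 1.5-fold, with a median of 0.33. These are 22.0% higher and 4.88% lower, against 17.2% and 24.2% of all genes past the minimum. All 41 had a mean level of at least 10, and of all genes with such a mean 15.4% were higher and 14.9% were lower. The regulators that shorten G protein signals went both ways, as Rgs2 was higher at 1.07, with 1367 and 2442 reads, and Rgs16 was lower at -1.59, with 94 and 26 reads. Rgs13, known from germinal centre B cells, had 0 and 31 reads. Grk3, a receptor kinase, was higher at 0.89, and the other kinases and arrestins of the list went different ways, with Grk5 at 0.70 and Arrb2 at 0.74 higher and Grk2 at 0.43, Grk6 at 0.44 and Arrb1 at -0.30 within 1.5-fold. Gng2, a G protein subunit, was higher at 0.86, and Pik3r6, Rgs18 and Ptk2b were higher at 0.78, 0.68 and 0.63. Rassf5, which links Rap1 to integrin activation, was lower at -0.70, with 4435 and 2323 reads. When the T cell core genes were set equal, 24 of these genes were higher and 1 was lower. With that scaling, 4640 of all 16659 genes past the minimum were higher and 3233 were lower, instead of 2864 and 4028.

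Receptors for attractants other than chemokines gave a further reference. Of 12 such receptors, 2 were higher, 1 was lower and 9 were within 1.5-fold, with a median of 0.13 against 0.64 for the chemokine receptors. The 16.7% higher is close to the 17.2% of all genes past the minimum, and 8.33% were lower against 24.2%. All 12 had a mean level of at least 10, and of all genes with such a mean 15.4% were higher and 14.9% were lower. The 2 higher receptors were C5ar1 at 1.16, with 727 and 1384 reads, and Cmklr1 at 1.73, with 102 and 290 reads, whereas the other receptors of myeloid cells in the list, Fpr1, Fpr2, Ltb4r1 and C3ar1, were within 1.5-fold at 0.49, 0.54, 0.08 and -0.34. Ptgdr2, a receptor of Th2 cells, eosinophils and basophils, was lower at -0.78 with 31 and 15 reads. The chemokine genes under other symbols were all higher, namely the platelet chemokine Pf4 with 58 and 97 reads, Ppbp with 12 and 58 reads, and the chemokine-like receptor Ccrl2 with 85 and 190 reads. The spread of most of these lists is drawn in the plot of lists.

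**Figure D5:**
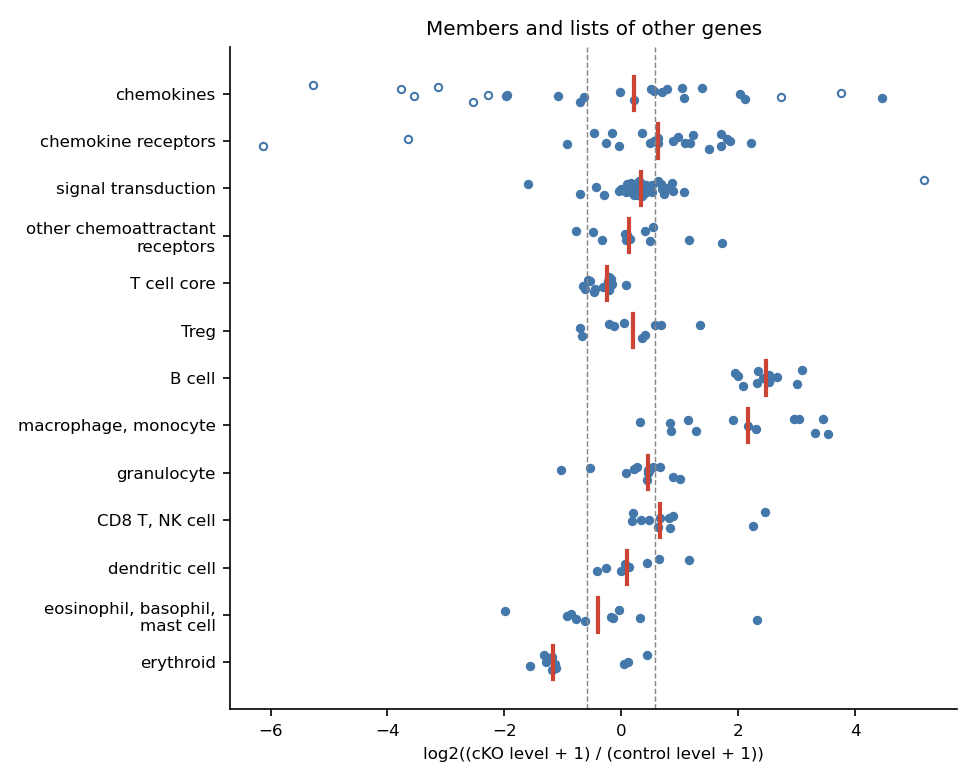
Log2 difference of single genes, with a pseudocount of 1, in the chemokines, the receptors, 2 lists of related genes and 9 lists of cell type genes; each circle is 1 gene, an open circle is a gene at 0 in 1 library, the bar is the median and dashed lines mark a fold of 1.5. The medians are 0.22 for the chemokines, 0.64 for the receptors, -0.24 for the T cell core genes, 2.47 for the B cell genes and 2.17 for the macrophage and monocyte genes.

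Tests on the reads gave a measure of how far counting error alone limits the calls, and they compare the 2 libraries, not the genotypes. The tests and their folds used TMM scaling (trimmed mean of M values) in place of the deposited scale. The exact binomial test with Benjamini-Hochberg adjustment covered 14863 genes. At an adjusted p under 0.1 and a fold of 1.5, it called 14.2% of them higher and 18.1% lower. Of 20 chemokines tested it called 9 higher and 6 lower, and of 23 receptors 13 higher and 3 lower. Allowing for an assumed spread between animals, a biological coefficient of variation of 0.4, edgeR's exact test called 1.54% of genes higher and 3.83% lower. Under that assumption Cxcl2 was the 1 chemokine called higher and Ccl28 the 1 called lower, and Ackr1 was called lower, with 0 receptors called higher. With an assumed coefficient of 0.2, 6 chemokines and 8 receptors were higher, against 6.26% of all genes, and 4 chemokines and 2 receptors were lower, against 10% of all genes.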

How the data were processed

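RNA-seq data of 2 libraries of splenic Treg cells were used, 1 from Foxp3-Mettl14f/+ cKO mice and 1 from littermate controls. According to the methods, mRNA was purified with oligo-dT beads, sequenced on an Illumina instrument and aligned to mm10 with TopHat. The submitters' processing notes name bcl2fastq 2.0, STAR, StringTie, DESeq2 and mm10, and the counting tool, the annotation and the use of strand are not given in the sources used here. The authors deposited 1 normalized signal per gene and library. Of these values, 100% were whole multiples of the value of 1 read (tolerance 0.01 of a read), and dividing by it gave whole reads, 20239325 and 18327535 in all.

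The levels were compared as log2 with a pseudocount of 1 among genes with a mean of at least 1, at a fold of 1.5. No list of genes was tested. As an addition after the unit was known, an exact binomial test on the reads was run for genes with at least 10 reads, adjusted by the Benjamini-Hochberg method, and called 2111 genes higher and 2683 lower at an adjusted p under 0.1. With an assumed coefficient of variation of 0.4, the exact test of edgeR called 229 and 569. Precision was given as exact Clopper-Pearson intervals at 95% and a floor of 3 reads.

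The genes named are all members of the family by symbol, those with a mean of at least 10 with full statistics. From the lists of related genes, those past the threshold with a mean of at least 10 are named (at most the 4 highest and 4 lowest). The plan was to name the most abundant and the defining gene of each cell type list, but this was not followed for every list. Further genes of these lists were chosen after their values were seen. In addition, 1 member and 1 cell type gene are counted in the totals but are not reported here. Members and lists were chosen with earlier results of these data known. GENCODE vM21 on GRCm38 gave coordinates and coding transcript lengths for 61 of 62 members, from the longest coding transcript of a gene, and promoter windows were from RefSeq. Alternatives were other pseudocounts, filters, scalings and folds. Python 3.11.15, numpy 2.4.6, scipy 1.17.1, pandas 2.3.3, matplotlib 3.10.9, R 4.3.3 and edgeR 4.0.16 were used, and the statistical steps were first tested on simulated data.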

Additional observations from a re-analysis of the deposited data

How the results depend on the processing

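No paired analysis was possible because only 1 sample of each genotype was sequenced, and leaving out a replicate would leave no comparison. No result changed sign apart from 4 small differences within 1.5-fold when the T cell core genes were set equal (Ccr7 0.25, Ccr10 0.14, Cxcr3 0.04 and Xcl1 0.26). With that scaling the median over all genes was 0.25 instead of -0.04 and the share of higher genes among those past 1.5-fold was 58.9% instead of 41.6%, and it gave 1.10 for the summed chemokines, 0.98 for the summed receptors, 0.93 for the receptor median, and 24 signal transduction genes higher and 1 lower. It moved 16 of the 39 members with a mean of at least 10 by more than their counting error. Ccl9 (0.80) and Cxcr6 (0.86), which are among these, and Ccl7 (0.84) and Xcr1 (0.64), which are not, then passed a fold of 1.5. Library totals, added after seeing the data, gave 0.72 and 0.59 for the sums and 0.55 for the receptor median. Without Ccl5 the summed chemokines differed by 0.90. A minimum mean of 10 left 5 chemokines lower and a receptor median of 0.76. The chemokine median of 0.22 was 0.56 with that minimum, 0.09 with no filter, 0.13 with library totals and 0.51 when T cell core genes were equalized. With only genes above 0 in both libraries, 4 chemokines and 1 receptor were lower and the medians were 0.64 and 0.88. A fold of 2 left 2 signal transduction genes higher and 1 lower. The tests on reads were added after seeing the data. The binomial test left 6 chemokines lower. With a coefficient of 0.2, edgeR called 6 chemokines higher and 4 lower, 8 receptors higher, and 2 signal transduction genes higher and 1 lower, and with 0.4 it called 1 chemokine higher and 1 lower, 0 receptors higher and 1 lower, and 1 signal transduction gene higher and 0 lower. The cause of these changes was not tested. For the same members, TMM scaling, the median of ratios and pseudocounts of 0.1 and 5 left all 39 within counting error. Pseudocounts of 0.1 and 5 moved 1 call each, Ccl7 and Ccl27a. Members with fewer than about 30 reads are limited by depth.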
